A study of Homo sapiens with 8 samples.

Results

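The genes described here encode the machinery that releases sterol regulatory element-binding proteins (SREBPs) from the membrane of the endoplasmic reticulum. They are the 7 features named SREBF1, SREBF2, SCAP, INSIG1, INSIG2, MBTPS1 and MBTPS2, found by gene name among the 22554 features of the deposited tables. All 7 were in both tables, and all 7 were among the 15432 features that passed the filter on low counts. Messenger RNA had been sequenced from SKOV3, an established human ovarian carcinoma line, in 4 samples given low-density lipoprotein (LDL) at 50 µg/mL for 48 h and in 4 control samples kept in ordinary medium. Every sample grew in McCoy's 5A medium with 10% fetal bovine serum, so the control cells also received serum. Whether each sample was a culture of its own is not stated in the labels, so p-values cover only the variation among these 8 samples, which could be technical.

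SREBPs are made as precursors anchored in the endoplasmic reticulum, where they bind the escort protein SCAP. When sterols are plentiful, INSIG proteins hold SCAP in place, and cholesterol released from internalised LDL is known to favour this retention. When sterols run low, SCAP carries the precursor to the Golgi in COPII vesicles, and the site-1 and site-2 proteases, encoded by MBTPS1 and MBTPS2, cut it. The freed amino-terminal part enters the nucleus and binds sterol regulatory elements in genes of cholesterol and fatty acid synthesis, with SREBP-2 (SREBF2) acting mainly on cholesterol genes and SREBP-1 (SREBF1) mainly on fatty acid genes. INSIG1 and SREBF2 are themselves known targets of SREBPs. The tables hold transcript levels, and the cleavage of the proteins was not measured.

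Total counts were 34682501 to 36780334 in the LDL samples and 37189698 to 44883561 in the control samples. On the first principal component, which held 18.9% of the variance, LDL sample 4 stood at 46.05, against -17.37 for LDL sample 1 at the other end and -10.68 to 1.856 for the other 6. On the second component, LDL samples 2 and 3 lay together at the high end, at 35.27 and 18.7, and LDL sample 1 was lowest, at -19.4. Values without LDL samples 1 and 4 are also given for the members and for several of the listed genes. That setting leaves only LDL samples 2 and 3, which lay together on the second component, against the 4 control samples. The 8 listed markers of the line differed widely in level. ERBB2 stood at 2515 ± 392 CPM (counts scaled to library size) in LDL samples and 2590 ± 133 CPM in control samples (SD, n = 4 each). PAX8 was at 410.2 ± 40.1 and 387.1 ± 9.98 CPM in the same order. EPCAM was lower, at 25.09 ± 3.52 and 21.8 ± 1.14 CPM. WT1 was near the floor, at 0.139 ± 0.161 and 0.21 ± 0.157 CPM. The 11 listed markers of other cell types summed to 55.7 to 61.2 CPM in LDL samples and 47.7 to 57.9 CPM in control samples, most of it CD68, a lysosomal glycoprotein (50.53 ± 2.38 against 44.38 ± 4.73 CPM). PTPRC, the pan-leukocyte marker, had a count of 0 in all 8 libraries. CD3E of T cells had 2 counts over the LDL libraries and 0 over the control libraries. Of 8 markers of the line and of the 6 other-cell markers that could be tested, 0 were called in edgeR, against 0.0648% of all features. So few features were called that 0 in lists of this size says little about these markers. At an unadjusted p under 0.05 in edgeR, EPCAM was higher and KRT7 lower among the 8, and CD68 was higher among the 6. The share of all features under that threshold was 5.59%. The lowest p of each list belonged to KRT7, a keratin of the line, at -0.25 (edgeR adjusted p = 0.858), and to CD68 at 0.19 (edgeR adjusted p = 0.849). CD68 was the 1 tested marker of other cells above 0, and CD14, CDH5, DCN, LUM and PDGFRB were below 0, which gave a list median of -0.27. The part of these markers in the results below was not tested.

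INSIG1 was the member called higher. It encodes the inducible retention protein and passed the threshold over all features, while SREBF2 and INSIG2 had ratios of 1.12 and 1.14 without passing it. The direction of INSIG1 held under all 19 alternatives run, but its call was lost under 11 of them. SREBF1, SCAP, MBTPS1 and MBTPS2 lay within 5% of their control level by the fitted ratio. With LDL set against control at an adjusted p under 0.05 in edgeR's quasi-likelihood test, 1 of the 7 members was called higher and 0 were called lower, against 0.0259% of all features called higher, 0.0389% called lower and 0.0648% called in either direction. DESeq2 likewise called 1 member higher and 0 lower, against 0.11% and 0.201% of all features, or 0.311% in either direction. At an unadjusted p under 0.05 in edgeR there were 3 members higher and 0 lower, against 2.88% and 2.72% of all features, or 5.59% in either direction. The LDL samples lay wholly above the control samples in 2 of the 7 members, INSIG1 and SREBF2, and wholly below in 0, against 1.74% and 1.71% of all features, or 3.45% in either direction. The median log2 fold change of the 7 was 0.058, against 0.0060 for all features tested.

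**Figure D1:**
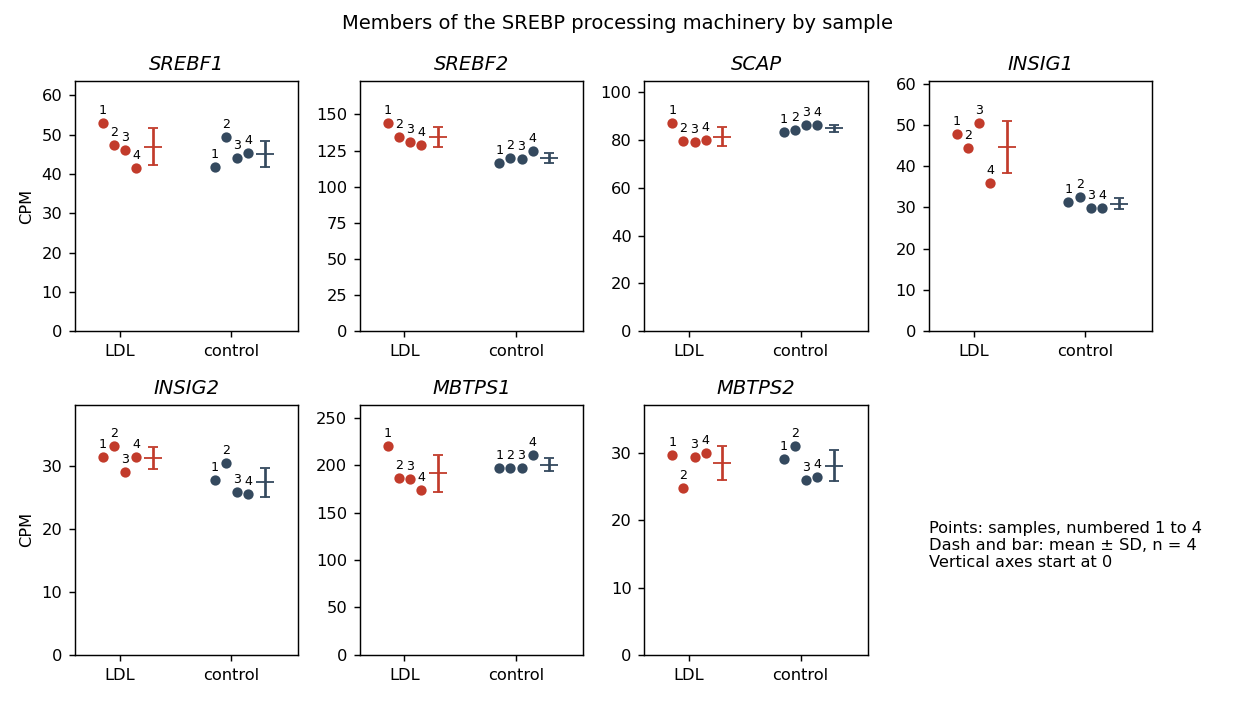
CPM of each of the 7 genes in every sample, with LDL samples left and control samples right, numbered as in the labels, and the mean ± SD of 4 samples beside them. INSIG1 lay at 35.82 to 50.5 CPM under LDL and at 29.81 to 32.49 CPM in control samples, and LDL sample 1 was the highest of all 8 in SREBF1, SREBF2, SCAP and MBTPS1.

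The precursor genes come first. SREBF2 (ENSG00000198911) occupies positions 41833079 to 41907308 of chromosome 22 in GRCh38, plus strand, and its longest coding transcript in GENCODE 29 has 20 exons. Its counts were 5337, 4622, 4532 and 4499 in LDL samples 1 to 4 and 4808, 4486, 4607 and 5552 in control samples 1 to 4. Scaled to library size, the levels were 144.3, 134.3, 130.7 and 129.1 CPM in LDL samples and 116.5, 119.7, 119.0 and 124.6 CPM in control samples. The groups did not overlap, and LDL sample 1 was the highest. The means were 134.6 ± 6.83 and 120.0 ± 3.39 CPM (LDL and control, SD, n = 4 each), a log2 fold change of 0.17 (SE 0.051, 95% interval 0.059 to 0.27). Taken by itself, SREBF2 had a two-sided exact permutation p of 0.0286, the lowest value possible with 4 samples a group. Over all features edgeR's adjusted p was 0.625 and the gene ranked 108 by p, so SREBF2 was not called. The adjusted p from DESeq2 was 0.271.

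SREBF1 (ENSG00000072310, chromosome 17 from 17810399 to 17837002, minus strand, 20 exons) showed no such separation. It encodes SREBP-1a and SREBP-1c from alternative first exons, which a gene-level table does not separate. Its levels were 53.06, 47.31, 46.11 and 41.54 CPM in LDL samples and 41.73, 49.52, 44.02 and 45.36 CPM in control samples. LDL samples held both the highest and the lowest of the 8 values. The log2 fold change was 0.058 (SE 0.077, 95% interval -0.10 to 0.22, edgeR adjusted p = 0.951). It was -0.0052 without LDL sample 1, 0.11 without LDL sample 4 and 0.045 without both, so its sign was not settled. RAI1 overlaps the 3′ end of SREBF1 on the opposite strand, and the labels do not say whether strand was used in counting; RAI1 had a log2 fold change of -0.085 (edgeR adjusted p = 0.903). The introns of SREBF1 and SREBF2 hold the miR-33b and miR-33a genes, which were not analysed here, and neither was the antisense gene SREBF2-AS1 at the SREBF2 start.

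The escort gene SCAP (ENSG00000114650, chromosome 3 from 47413694 to 47477126, minus strand, 23 exons) encodes the sterol sensor that binds both SREBPs and INSIGs. Its levels were 87.25, 79.77, 79.05 and 79.86 CPM in LDL samples and 83.3, 84.23, 86.22 and 86.3 CPM in control samples. LDL samples 2, 3 and 4 lay below every control sample and LDL sample 1 above every one. The log2 fold change was -0.061 (SE 0.052, 95% interval -0.17 to 0.050, edgeR adjusted p = 0.925). The interval leaves room for a fall of up to 0.17 on the log2 scale and not for a rise above 0.050.

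INSIG1 and INSIG2 encode related retention proteins that differ in control. INSIG1 is known to be induced by SREBPs and to be degraded quickly when sterols are low, while INSIG2 is known as the steadier of the pair and is not regarded as an SREBP target. INSIG1 (ENSG00000186480, chromosome 7 from 155297776 to 155310235, plus strand, 6 exons) had counts of 1762, 1527, 1751 and 1248 in LDL samples 1 to 4 and 1294, 1218, 1154 and 1334 in control samples 1 to 4. Its levels were 47.65, 44.37, 50.5 and 35.82 CPM in LDL samples and 31.36, 32.49, 29.81 and 29.94 CPM in control samples. The groups did not overlap, and LDL sample 4 lay closest to the controls. The means were 44.59 ± 6.36 and 30.9 ± 1.27 CPM (LDL and control, SD, n = 4 each), a ratio of 1.44 (log2 fold change 0.53, SE 0.089, 95% interval 0.34 to 0.72, edgeR adjusted p = 0.0347, rank 9 by p). In RNA from whole cultures, more transcript per cell and more cells with the transcript cannot be told apart.

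The fold change of INSIG1 was steadier than its call. With each sample left out in turn it ran from 0.46 to 0.62 on the log2 scale, and edgeR's adjusted p ran from 0.000182 to 0.278. Leaving out LDL sample 4 gave 0.62 (edgeR adjusted p = 0.000182) and leaving out LDL samples 1 and 4 gave 0.61 (edgeR adjusted p = 5.26e-05). The call was lost without any 1 of the 4 control samples and without LDL sample 2 or LDL sample 3. DESeq2 gave an adjusted p of 6.05e-05, and limma voom one of 0.148.

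INSIG2 (ENSG00000125629, chromosome 2 from 118088452 to 118110997, plus strand, 6 exons) had 31.4, 33.13, 29.01 and 31.52 CPM in LDL samples and 27.73, 30.52, 25.83 and 25.52 CPM in control samples. The groups overlapped through control sample 2, which lay above LDL sample 3. The log2 fold change was 0.19 (SE 0.076, 95% interval 0.030 to 0.35) with an unadjusted p of 0.0227 and an adjusted p of 0.849 in edgeR. INSIG2 was not called by edgeR or by DESeq2 (adjusted p = 0.671). Without LDL samples 1 and 4 the log2 fold changes were 0.18 for INSIG2, 0.14 for SREBF2, 0.045 for SREBF1 and -0.10 for SCAP, and INSIG1 was again the 1 member called higher, with 0 lower. Over all features that setting called 108 higher and 140 lower.

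**Figure D2:**
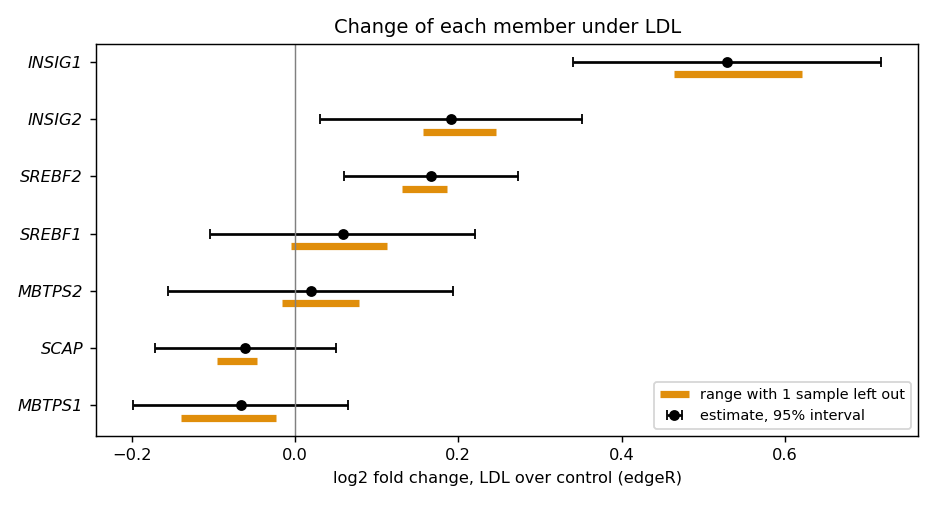
Log2 fold change of each gene, LDL over control, from edgeR (point) with its 95% interval (black bar) and the range when 1 sample is left out at a time (orange bar). INSIG1 stood at 0.53, INSIG2 at 0.19 and SREBF2 at 0.17. The intervals of INSIG1 and INSIG2 overlapped, and the intervals of the other 4 genes held 0.

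The promoters of INSIG1 and SREBF2 are printed because these are the members whose groups did not overlap and both are known SREBP targets. Each sequence is the 250 bases before the gene's start in RefSeq on GRCh38.p14, 5′ to 3′ on the plus strand, with matches to TCACNCCAC (a core of the sterol regulatory element, N being any base), CACGTG (an E-box) and CCAAT (the box bound by NF-Y, a known partner of SREBPs) in capitals. CCAAT appears as ATTGG where it lies on the other strand. The INSIG1 window is chr7:155297628-155297877 and the SREBF2 window chr22:41832855-41833104.
INSIG1: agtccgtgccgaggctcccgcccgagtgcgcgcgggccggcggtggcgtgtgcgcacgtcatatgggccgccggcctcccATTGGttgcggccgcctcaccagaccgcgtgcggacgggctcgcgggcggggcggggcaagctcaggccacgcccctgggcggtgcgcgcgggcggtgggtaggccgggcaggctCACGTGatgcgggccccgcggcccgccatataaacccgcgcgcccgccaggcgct
SREBF2: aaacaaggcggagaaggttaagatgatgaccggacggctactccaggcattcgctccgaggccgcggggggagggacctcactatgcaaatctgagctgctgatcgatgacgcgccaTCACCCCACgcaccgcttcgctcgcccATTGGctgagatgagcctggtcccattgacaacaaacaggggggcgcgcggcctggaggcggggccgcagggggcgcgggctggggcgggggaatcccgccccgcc

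The SREBF2 window holds the sterol element TCACNCCAC, which starts 133 bases before the RefSeq start, and a CCAAT box 106 bases before it. That element was found on either strand in 310 of 35116 RefSeq promoter windows of this length, or 0.883%. INSIG2 has 2 RefSeq starts, and of the 8 windows of the members 1 held it. The INSIG1 window holds a CCAAT box 170 bases and the E-box 55 bases before the RefSeq start. GENCODE 29 starts INSIG1 at 155297776, upstream of the RefSeq start, so the E-box lies inside the first exon of that transcript. Another of the members, SCAP, also has the E-box, 58 bases before its start, and 6.34% of all windows hold it. The CCAAT box was found in 32.0% of all windows, and among the members in INSIG1 and SREBF2. GGGCGG, the GC box bound by SP1, was found in 6 of the 8 windows and in 42.6% of all windows, with 5 matches in INSIG1 and 2 in SREBF2. Among the GC boxes of INSIG1, the one that starts 126 bases before the RefSeq start shares a base with its next neighbour downstream, and each is counted. These are matches of letters in a window and were not tested for binding.

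The protease genes stayed near their control level. MBTPS1 (ENSG00000140943, chromosome 16 from 84053761 to 84116906, minus strand, 23 exons) encodes the Golgi serine protease that makes the first cut in the luminal loop of SREBPs. Its levels were 219.8, 186.4, 185.6 and 173.9 CPM in LDL samples and 197.3, 197.2, 197.0 and 210.4 CPM in control samples. LDL sample 1 was above every control sample and LDL samples 2, 3 and 4 were below every one, the same split as in SCAP. The log2 fold change was -0.067 (SE 0.062, 95% interval -0.20 to 0.065, edgeR adjusted p = 0.93). Without LDL sample 1 it was -0.14 (edgeR adjusted p = 0.152), and without LDL samples 1 and 4 it was -0.11 (edgeR adjusted p = 0.275).

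MBTPS2 (ENSG00000012174, X chromosome from 21839636 to 21885424, plus strand, 7 exons) encodes the metalloprotease that makes the second cut, within the membrane. Its levels were 29.75, 24.76, 29.47 and 30.08 CPM in LDL samples and 29.06, 31.0, 26.04 and 26.49 CPM in control samples, with LDL sample 2 the lowest of the 8. The log2 fold change was 0.019 (SE 0.083, 95% interval -0.16 to 0.19, edgeR adjusted p = 0.987), and its sign turned when LDL sample 1, LDL sample 4, control sample 3 or control sample 4 was left out, and was -0.057 without LDL samples 1 and 4. YY2, a gene within MBTPS2 on the same strand, had a log2 fold change of 0.041 (edgeR adjusted p = 0.987), and reads may be shared between them.

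Levels were compared between genes in FPKM, the deposited values in which the authors corrected fragments for length and depth. The site-1 protease gene was the most abundant of the 7, with MBTPS1 at 41.83 ± 4.86 FPKM in LDL samples and 43.58 ± 1.55 FPKM in control samples (SD, n = 4 each). SREBF2 followed at 24.74 ± 1.63 and 21.81 ± 0.61 FPKM, then SCAP at 19.99 ± 1.15 and 20.69 ± 0.579 FPKM and INSIG1 at 15.2 ± 2.26 and 10.74 ± 0.276 FPKM, LDL samples first each time. SREBF1 stood at 9.833 ± 0.952 and 9.294 ± 0.63 FPKM, and INSIG2 at 8.452 ± 0.458 and 7.345 ± 0.604 FPKM. MBTPS2 was the lowest at 6.122 ± 0.574 and 6.014 ± 0.523 FPKM. The order was the same in all 8 samples, although the ranges over all samples overlapped between SREBF2 and SCAP, between INSIG1 and SREBF1, and between SREBF1 and INSIG2. With CPM divided by the annotated length of the longest coding transcript, INSIG2 and SREBF1 changed places. The proteases stood far apart, MBTPS1 having on average 7.08 times the FPKM of MBTPS2 over the 8 samples.

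**Figure D3:**
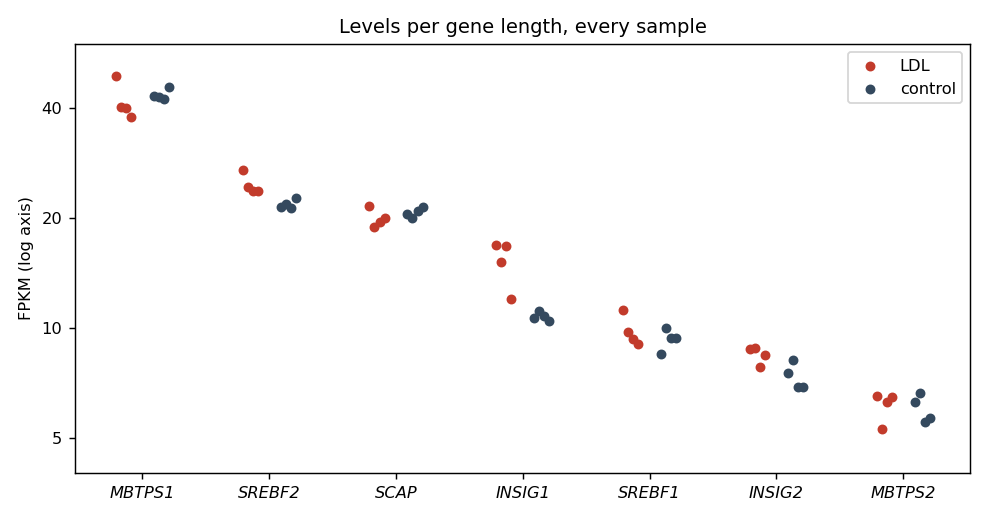
FPKM of the 7 genes in every sample on a log axis, ordered by mean level, with LDL samples left of control samples for each gene. MBTPS1 lay highest, at 37.89 to 48.92, and MBTPS2 lowest, at 5.274 to 6.623, and only INSIG1 and SREBF2 showed groups with no overlap.

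Within each sample, the balance between members was followed by 3 ratios of FPKM. INSIG1 to SCAP, retention against escort transcripts, was 0.78, 0.805, 0.858 and 0.601 in LDL samples and 0.521, 0.555, 0.514 and 0.488 in control samples. The groups did not overlap, and the LDL to control ratio of this quantity was 1.45 (log2 difference 0.54, exact two-sided permutation p = 0.0286, 0.0857 when adjusted over the 3 ratios). INSIG1 to INSIG2 was 1.92, 1.72, 2.15 and 1.42 in LDL samples and 1.42, 1.36, 1.56 and 1.52 in control samples. LDL sample 4 fell within the control range, and an unequal change of the INSIG genes did not pass (log2 difference 0.28, exact permutation p = 0.0857, adjusted 0.114). Without LDL sample 4 the log2 difference was 0.39 (exact permutation p = 0.0286, the smallest that 3 against 4 samples can give). With any other 1 sample left out the exact permutation p was 0.114 to 0.171. INSIG1 made up 64.0% of the summed INSIG FPKM in LDL samples and 59.4% in control samples on average, and the sum was 23.65 ± 2.24 in LDL samples and 18.09 ± 0.847 in control samples (SD, n = 4 each).

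SREBF2 to SREBF1 was 2.42, 2.5, 2.54 and 2.62 in LDL samples and 2.54, 2.18, 2.28 and 2.42 in control samples. The groups overlapped (log2 difference 0.10, exact permutation p = 0.114, adjusted 0.114). The higher level of SREBF2 and the flat level of SREBF1 were thus not shown to differ. Without control sample 1, whose ratio was the highest of its group, the log2 difference was 0.14 (exact permutation p = 0.0286). With any other 1 sample left out the exact permutation p was 0.114 to 0.257.

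**Figure D4:**
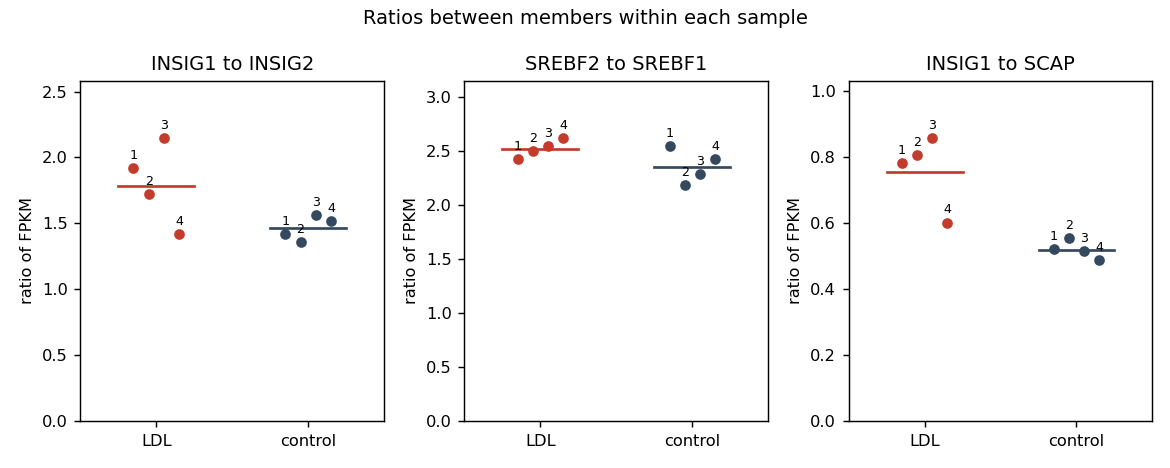
Ratio of FPKM between members within each sample, with LDL samples left and control samples right, numbered as in the labels, and the geometric mean of each group as a line. INSIG1 to SCAP was 0.601 to 0.858 under LDL and 0.488 to 0.555 in control samples, while the other ratios overlapped between groups.

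Among the 5 features whose pattern over the 8 samples was closest to that of INSIG1, 3 were from the list of 24 sterol genes given below. Among 12550 features with a gene symbol and a mean of at least 1 CPM, likeness was measured as the root-mean-square difference in log2 CPM after centring each gene on its mean. The closest was HMGCS1, the cytosolic HMG-CoA synthase (difference 0.112), followed by KHK, the ketohexokinase (0.118), MSMO1, the sterol C4-methyl oxidase (0.125), STARD4, a cytosolic sterol carrier (0.131), and MND1, a meiotic recombination factor (0.135). The median difference over all these features was 0.313, and INSIG1's own spread around its mean was 0.293. The centring kept the difference between groups, so a gene higher under LDL lies closer to INSIG1 partly through that difference. All 5 had log2 fold changes above 0, from 0.33 for STARD4 to 0.46 for MSMO1. HMGCS1 had 182.0, 171.1, 180.2 and 117.4 CPM in LDL samples and 128.4, 133.9, 118.4 and 125.5 CPM in control samples. As for INSIG1, LDL sample 4 was the lowest of the LDL samples, but here it fell below every control sample. Features with flatter patterns can lie close to SREBF2 by this measure. Its closest were PPP1R1B, a phosphatase inhibitor (0.0271), MVP, the major vault protein (0.035), ZMIZ2 (0.0366), C1QTNF6 (0.0384) and RUBCN, an autophagy regulator (0.0387), and its own spread was 0.0969.

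Genes downstream of the machinery were described by listed targets. Of 24 sterol genes known as SREBP-2 targets, all tested, edgeR called 2 higher and 0 lower, against 0.0259% and 0.0389% of all features. Among the 24, 22 had a log2 fold change above 0 against 52.3% of all features, and the median was 0.23 against 0.0060. The called genes were MSMO1, at 47.68 ± 1.93 CPM in LDL and 34.76 ± 2.77 CPM in control samples (edgeR adjusted p = 0.0114, n = 4 each), and CYP51A1, the lanosterol demethylase, at 47.05 ± 0.949 and 36.92 ± 1.62 CPM (edgeR adjusted p = 0.0347). FDFT1, the squalene synthase, was at 179.4 ± 11.6 CPM in LDL and 148.3 ± 7.06 CPM in control samples without passing (edgeR adjusted p = 0.106). IDI1, an isomerase of the mevalonate arm, had a log2 fold change of 0.40 (edgeR adjusted p = 0.173), and SQLE, the squalene epoxidase, one of 0.28 (edgeR adjusted p = 0.333). DESeq2 called FDFT1 and IDI1 higher (DESeq2 adjusted p = 0.00376 and 0.00917) and did not call SQLE (DESeq2 adjusted p = 0.0756). MSMO1 lost its call without LDL sample 2 or 3 or control sample 1, 3 or 4 (edgeR adjusted p from 0.0522 to 0.142), and CYP51A1 without LDL sample 2 or 3 or any 1 control sample (edgeR adjusted p from 0.0874 to 0.262). Both lost it on log2 FPKM (limma adjusted p from 0.0583 to 0.19 for MSMO1 and from 0.108 to 0.19 for CYP51A1) and with the replicate number as a block (edgeR adjusted p = 0.0783 and 0.234), and CYP51A1 also with limma voom (adjusted p = 0.0649). Without LDL samples 1 and 4, HMGCS1 was called higher, at 0.47 (edgeR adjusted p = 2.42e-05, against 0.876 with all samples), as it was without LDL sample 4 alone, at 0.49 (edgeR adjusted p = 0.000145). With LDL samples 1 and 4 left out, FDFT1, IDI1 and SQLE were also called higher (edgeR adjusted p = 0.00541, 0.00409 and 0.0015). FDFT1 was also called without either of these samples alone, IDI1 without LDL sample 1 alone and SQLE without LDL sample 4 alone. Leaving out LDL samples 1 and 4 was added after seeing the data, and kept only LDL samples 2 and 3 against the 4 control samples. Over all features it gave 108 calls higher and 140 lower, against 4 and 6 with all samples. There were 47 and 102 without LDL sample 1 alone, and 12 and 14 without LDL sample 4 alone. HMGCS1 in LDL sample 4 lay below every control sample, so leaving that sample out raised its fold change. The lowest 2 of the list were EBP, a sterol isomerase, at -0.26, and SC5D, a sterol desaturase, at -0.070. The list's median ran from 0.21 to 0.25 with 1 sample left out at a time.

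Fatty acid genes known as SREBP-1 targets gave no call. Of 16 tested genes, out of 17 listed, 0 were called in either direction in edgeR, against 0.0648% of all features. So few features were called that 0 in a list of this size says little about its genes. At an unadjusted p under 0.05, 5 were higher and 1 lower, against 2.88% and 2.72% of all features. The median log2 fold change was 0.065. The sterol list had 18 of 24 higher and 0 lower by the same unadjusted threshold, and the difference between the lists was not tested. SCD, the stearoyl-CoA desaturase, stood at 73.05 ± 10.8 CPM in LDL samples and 58.12 ± 1.77 CPM in control samples (edgeR adjusted p = 0.353, n = 4 each), with no overlap between groups and the highest value in LDL sample 1. LPIN1, a phosphatidate phosphatase, had a log2 fold change of 0.22, FADS1, the delta-5 desaturase, one of 0.15 and ACSS2, an acetyl-CoA synthetase, one of 0.15, none past the threshold. Without LDL samples 1 and 4 the log2 fold changes were 0.19 for SCD, 0.14 for LPIN1 and 0.064 for FADS1, with 0 of these 3 called. PNPLA3, a lipid droplet acyl hydrolase, was lower at -0.47 (edgeR adjusted p = 0.822). FASN, the fatty acid synthase, stood at 407.0 ± 32.4 CPM in LDL samples and 390.2 ± 14.1 CPM in control samples.

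Genes that act on the machinery or share its proteases gave 0 calls in either direction in edgeR, against 0.0648% of all features. So few features were called that 0 in lists of this size says little about these genes. At an unadjusted p under 0.05 the share of all features was 5.59%. For 16 genes of INSIG ubiquitination and sterol-regulated degradation the median was 0.015, and 0 of them had an unadjusted p under 0.05. RNF145, a ubiquitin ligase of this group, was at -0.11 (edgeR adjusted p = 0.879). For 13 genes of the COPII coat and Golgi anchoring, the median was -0.0090, with SEC16A, a scaffold of exit sites, at -0.12 (edgeR adjusted p = 0.882) and 0 at an unadjusted p under 0.05. For 10 other regulators the median was -0.013, with the coactivator gene CREBBP at -0.12 (edgeR adjusted p = 0.878) as the 1 member with an unadjusted p under 0.05. SPRING1, which licenses the site-1 protease, was at -0.051.

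Other substrates of these proteases, ATF6 and CREB3 relatives and GNPTAB, had a median of -0.064 over 7 tested genes, with CREB3 at 0.097 (edgeR adjusted p = 0.884). Chaperone genes driven by ATF6, a transcription factor freed by the same cuts, had a median of 0.0034 over 14 genes, with HYOU1, a chaperone of the lumen, at -0.11 (edgeR adjusted p = 0.879). HSPA5, the chaperone BiP, stood at 859.8 ± 67.5 CPM in LDL samples and 863.2 ± 19.5 CPM in control samples (n = 4 each). In each of these lists 0 genes had an unadjusted p under 0.05 in edgeR, against 5.59% of all features. Of 5 tested targets of the liver X receptors, which are known to drive SREBF1, 0 were called, against 0.0648% of all features. A count of 0 in so short a list says little. The list's median was -0.17, against 0.0060 for all features, with 2 genes above 0 and 3 below. ABCA1, the cholesterol exporter, was at 20.88 ± 4.05 CPM in LDL samples and 26.5 ± 3.04 CPM in control samples (edgeR unadjusted p = 0.0143, adjusted p = 0.817, n = 4 each). Without LDL sample 1 ABCA1 was called lower, at -0.48 (edgeR adjusted p = 0.0279), as was SEC16A, at -0.20 (edgeR adjusted p = 0.0366), and without LDL samples 1 and 4 ABCA1 was at -0.47 (edgeR adjusted p = 0.0225). SEC16A was not called in that setting (-0.18, edgeR adjusted p = 0.0515), and on log2 FPKM with a pseudocount of 1 it was at -0.037 (limma adjusted p = 0.962). Over all features, 102 were called lower without LDL sample 1 and 140 without LDL samples 1 and 4, against 6 with all samples.

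**Figure D5:**
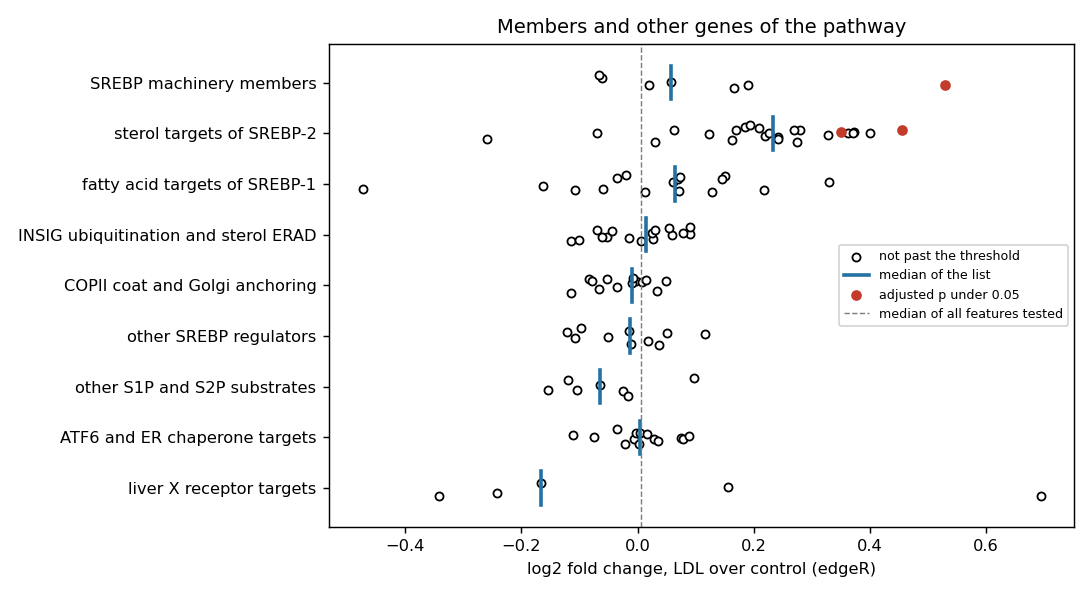
Log2 fold change, LDL over control, of the 7 genes and of 8 lists of related genes from edgeR, with a point for each tested gene, red where the adjusted p was under 0.05, a blue line at each list's median and a dashed line at the median of all features. The sterol targets had a median of 0.23, and the called genes were INSIG1, MSMO1 and CYP51A1.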

How the data were processed

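Stranded mRNA libraries were made from total RNA, per the labels' protocols. GRCh38, HISAT2, featureCounts and DESeq2 1.26.0 appear, without roles, in the submitters' processing notes; the gene models and how reads were counted are not stated. The authors deposited whole-number gene counts, handled here as estimated counts, because 55.2% of values from 1 to 20 were even, and entered the tests as whole numbers. FPKM, scaled by the authors to length and depth, are also as deposited.

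Features were tested with edgeR 4.0.16 in R 4.3.3 (quasi-likelihood, TMM, filterByExpr, robust, group only, Benjamini-Hochberg over 15432 features). CPM use TMM-scaled library sizes, and log2 CPM a prior count of 2. The common biological coefficient of variation was 12.6%, and 95% intervals cover the spread between samples. Ratios of FPKM were tested by exact permutation. Chi-square per degree of freedom was 6.84 to 28.9 for 2 libraries of a group, so they differed by more than counting noise. Whether they came from separate cultures cannot be read from this. Simulated data served to check the edgeR fit.

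Alternatives were DESeq2 1.42.0, limma 3.58.1 (voom, and log2 FPKM with pseudocounts of 1 or 0.1), other scalings and filters, the replicate number as a block, and each sample left out; leaving out LDL samples 1 and 4 together was added after seeing the data. Genes named are all members, the listed genes with the smallest p and the nearest patterns. EBP, SC5D, FASN, SPRING1, HSPA5, ERBB2, PAX8, PTPRC, CD3E, CD14, CDH5, DCN, LUM, PDGFRB, RAI1 and YY2 were chosen after their values were seen. So were EPCAM and WT1. The members and lists were chosen with earlier results of these data known. Gene positions come from GENCODE 29, matched by symbol, and promoters from RefSeq GRCh38.p14, matched for all 7 members.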

Additional observations from a re-analysis of the deposited data

Results flagged for a closer look

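In 3 of 20 groups of 4 values examined, 1 sample stood far from the other 3; chance alone flags about 1 in 20. SCAP was higher in LDL sample 1, at 87.25 CPM, than in the other LDL samples, at 79.05 to 79.86 CPM, and the gap was 0.901 of the group's range. MBTPS1 was higher in control sample 4, at 210.4 CPM, than in the other control samples, at 197.0 to 197.3 CPM, a gap of 0.982 of the range. MBTPS2 was lower in LDL sample 2, at 24.76 CPM, than in the other LDL samples, at 29.47 to 30.08 CPM, a gap of 0.886 of the range. None of these 3 genes was called in edgeR (adjusted p = 0.925, 0.93 and 0.987 for SCAP, MBTPS1 and MBTPS2), and their causes were not tested.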

How the results depend on the processing

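Calls over all features, 4 higher and 6 lower, became 17 and 31 with DESeq2, 2 higher with limma voom, 2 and 2, 1 and 1, and 2 and 1 with log2 FPKM (pseudocount 1, pseudocount 0.1, and pseudocount 1 with no minimum), and 108 and 140 without LDL samples 1 and 4. With 1 sample left out they ran from 1 to 47 higher and 1 to 102 lower; the highest counts came without LDL sample 1. The member count of 1 higher ran from 0 to 1 with 1 sample left out. The cause of these shifts was not tested.

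INSIG1 kept its direction under all 19 alternatives run, from 0.45 to 0.62 on the log2 scale, and stayed past the threshold in 8. It was lost with limma voom (0.52, adjusted p = 0.148) and with log2 FPKM (0.453, 0.485 and 0.453; adjusted p = 0.228, 0.247 and 0.565, pseudocounts as above), each leaving 0 members called. With 1 sample left out it ran from 0.464 to 0.621. The labels do not say that replicate numbers pair samples, and deviations of same-numbered samples correlated between -0.101 and 0.0602. With the replicate number as a block, INSIG1 was at 0.519 (adjusted p = 0.0783), 0 members were called, and 1 feature was called in each direction. Under that block the INSIG1 to SCAP ratio stayed at 0.54 with a exact sign-flip p of 0.125, the smallest that 4 pairs can give.

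With 1 sample left out, INSIG1 to INSIG2 ran from 0.195 to 0.392, SREBF2 to SREBF1 from 0.0651 to 0.137 and INSIG1 to SCAP from 0.478 to 0.649, whose exact permutation p was 0.0571 without any 1 control sample. The log2 fold change of SREBF1 ran from -0.00522 (without LDL sample 1) to 0.113. That of MBTPS2 ran up to 0.0784 and turned to -0.00161 and -0.0071 without LDL sample 1 or 4, to -0.016 and -0.0103 without control sample 3 or 4, and to -0.0571 without LDL samples 1 and 4. By CPM per kilobase of annotated length SREBF1 ranked 6 and INSIG2 ranked 5. The FPKM came with no estimate of counting error, and a change under about 0.1 on the log2 scale is within the intervals of most members.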

Other observations

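LDL sample 4, with the lowest INSIG1 of its group, did not have low levels of all sterol genes. Of the 24 SREBP-2 targets, 15 lay above every control sample in LDL sample 4, against 19, 21 and 19 in LDL samples 1, 2 and 3. The 9 that did not included HMGCS1, SQLE and STARD4. HMGCS1 and SQLE stood at 117.4 and 67.03 CPM in LDL sample 4, against 171.1 to 182.0 and 80.79 to 86.09 CPM in the other LDL samples. MSMO1 and CYP51A1 stood at 46.93 and 48.45 CPM in LDL sample 4, against 45.91 to 50.41 and 46.44 to 46.78 CPM in the others. This split was noticed after the values were seen, in 1 library, and was not tested.

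SCAP and MBTPS1 shared an arrangement in which LDL sample 1 was above every control sample and the other 3 LDL samples below every one, so their small fitted falls average opposite differences. SREBF1 also had its highest level in LDL sample 1. The cause was not tested.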
